A study of Mus musculus with 2 samples.

Results

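The 10 genes described here are transcription factors and Wnt pathway genes of blood vessel endothelium: Lef1, Apcdd1, Axin2, Ctnnb1, Sox7, Sox17, Sox18, Foxf2, Foxq1 and Erg. They were taken by gene symbol from the 32285 genes of both count matrices, and all 10 were found. The matrices hold single-cell RNA counts (10x Genomics 5′ kit, version 2) of hippocampi of 4-week-old mice without treatment, in 1 wild-type and 1 Crlf3-mutant library. In the mutant, cytokine receptor-like factor 3 bears the L389P substitution. Hippocampi were pooled before loading, 4 of them from 2 mice for either genotype, so neither genotype has a replicate and no genotype difference was tested.

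In canonical Wnt signalling, a ligand held by a Frizzled receptor and an LRP co-receptor stops the destruction complex from removing β-catenin, which then enters the nucleus and acts with TCF and LEF factors. In the brain, astrocytes and neural progenitors supply Wnt7a, Wnt7b and Norrin, and endothelial cells answer through Fzd4 and its co-receptors by building the blood-brain barrier. The SoxF factors (Sox7, Sox17 and Sox18), the ETS factor Erg and the forkhead factors Foxf2 and Foxq1 are transcription factors of endothelial cells, and Sox17 is known for its part in arterial fate.

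The 3 SoxF genes are paralogs, and how the counting treated reads that fit several genes is not given in the sources used here, so the split of reads among them is uncertain. Gene positions are those of the GENCODE M21 annotation (GRCm38). Foxq1 (chr13:31556134-31560976) and Foxf2 (chr13:31625816-31631403) are neighbours on the plus strand, 64839 bases apart. Lef1 lies at chr3:131110471-131224356, Axin2 at chr11:108920349-108950783, Ctnnb1 at chr9:120929216-120960507 and Erg at chr16:95359169-95586593. Promoter windows of RefSeq starts (GRCm38.p6) were at hand for 5 of the 10 genes, Lef1, Axin2, Ctnnb1, Foxf2 and Erg, with 11 starts among them. The 250 bases before each start were searched on both strands for the letters CTTTGA (TCF and LEF factors), ACAAT (SOX), CCGGAA (ETS) and TAAACA (forkhead). Only the window of the most downstream Lef1 start and that of the most downstream Erg start held a match. The Lef1 window is printed because it holds the TCF and LEF letters at 2 places, with the matches in capitals (chr3:131156044-131156293, plus strand, overlapping no annotated exon).
Lef1, downstream start: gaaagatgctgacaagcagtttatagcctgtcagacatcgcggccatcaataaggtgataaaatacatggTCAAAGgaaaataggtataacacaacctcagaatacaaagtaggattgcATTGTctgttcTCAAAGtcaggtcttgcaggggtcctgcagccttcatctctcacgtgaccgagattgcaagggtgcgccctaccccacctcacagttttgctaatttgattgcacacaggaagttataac

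The letters TCAAAG begin 180 and 120 bases before that start, and ATTGT begins 131 bases before it. Of 32851 promoter windows, 13.8% hold CTTTGA on either strand, 1.37% hold it at 2 or more places, and 27.7% hold the SOX letters. The ETS and the forkhead letters are each in 12% of the windows. The match is a description of letters, and the other windows' lack of one says nothing about the factors.

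The matrices held 7713 and 5720 barcodes with 51328178 and 43103469 UMIs (unique molecular identifiers, 1 per counted RNA molecule), and 7098 wild-type and 5276 mutant cells were used. The libraries shared 64 barcodes. Cells were assigned to a class by their own marker genes, without using the 10 genes, and 6 classes had at least 50 cells in each library. Endothelial-like cells numbered 826 and 812, with medians of 4558.5 and 5279 UMIs per cell. All 12 endothelial markers were detected in them, and Cdh5, the endothelial cadherin, stood at 407 CPM (the UMIs of a gene scaled to a class total of 1e+06 UMIs) in wild-type and at 422 CPM in mutant cells. The class was assigned by these same markers, so their presence is no independent check of it. Summed microglia markers were at 172 and 134 CPM there, against 42360 and 42590 CPM in microglia-like cells. Summed mural markers, of pericytes and smooth muscle, were at 886 and 658 CPM against 50147 and 48339 CPM in mural-like cells.

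Every one of the 10 genes had its highest level in endothelial-like cells in both libraries. Among the 3308 genes at 50 CPM and 30 UMIs in endothelial-like cells of both libraries, 26.7% did. Lef1, Sox7, Sox17, Sox18, Foxq1 and Erg, 6 of the 10, were at least 10 times higher there than in each of the other 5 classes in both libraries, as were 4.08% of those genes. These are descriptions of summed counts of 2 libraries, and a lower level in a class cannot be told apart from fewer expressing cells by the sums alone.

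**Figure D1:**
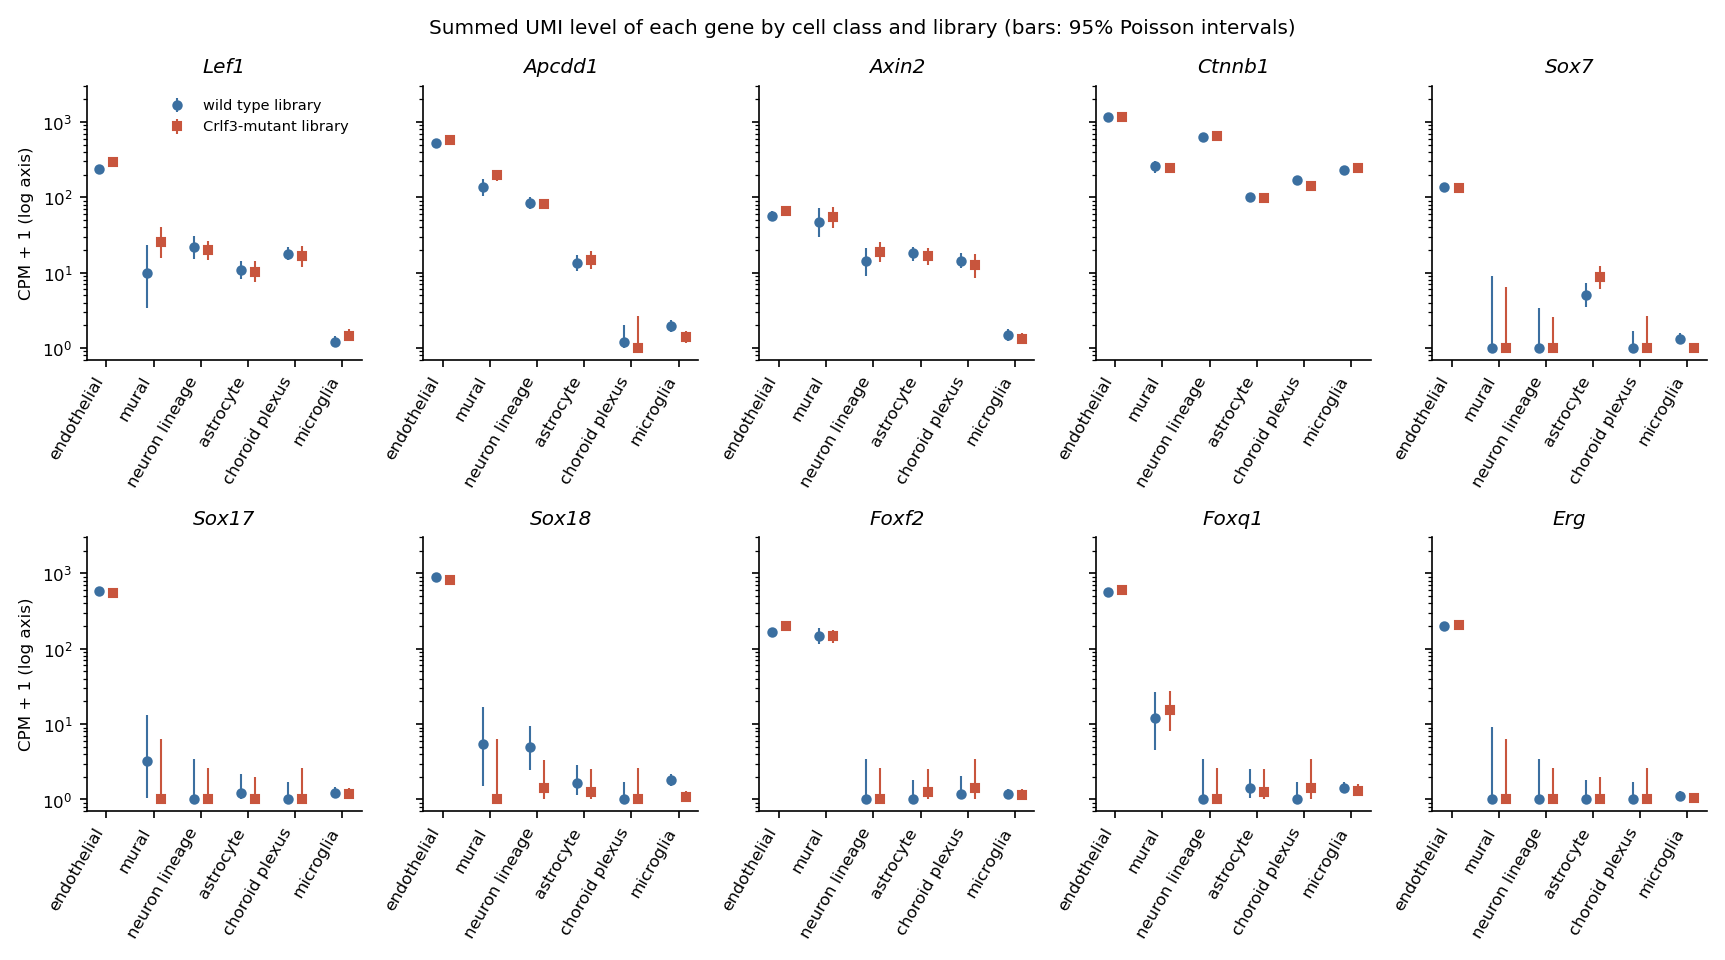
Level of each gene (CPM + 1, log axis) in 6 cell classes of the wild-type (circles) and mutant library (squares), with 95% Poisson intervals of the counts. Endothelial-like cells are the highest class in each panel, and mural-like cells come close for Foxf2 and Axin2.

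Among the SoxF genes, Sox17 reached 586 and 556 CPM in endothelial-like cells (wild type, then mutant, as in all pairs of values below), from 2410 and 2563 UMIs. Over the other 5 classes together it had 9 and 5 UMIs. Sox18 was at 883 and 822 CPM in endothelial-like cells, and at most at 4.37 CPM elsewhere. Sox7 was at 137 and 130 CPM, and its next class was the astrocyte-like cells, at 4.09 CPM (19 UMIs) and 7.69 CPM (28 UMIs). Outside endothelial-like cells, none of the 3 exceeded 7.69 CPM in any of the classes. Sox17 and Sox18 also had UMIs in microglia-like cells of both libraries, 7 and 5 for Sox17 and 24 and 2 for Sox18, which is less than 1 CPM.

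Most endothelial-like cells held RNA of this family. At least 1 UMI of any SoxF gene was present in 97.2% and 97.8% of endothelial-like cells, and UMIs of all 3 in 32.7% and 38.9%. A Sox17 UMI was in 84.1% and 86.0% of them, against 0.067% and 0.061% of microglia-like cells, whose median depth was higher (6356.5 and 7743 UMIs). With each cell thinned to 2000 UMIs, the endothelial shares were 63.4% and 62.1%. The median endothelial-like cell held UMIs of 7 of the 10 genes in both libraries.

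Erg, an ETS factor of the endothelial lineage, was at 199 and 207 CPM in endothelial-like cells, from 820 and 954 UMIs. Its only other UMIs in the 6 classes were 3 and 1 in microglia-like cells. No Erg UMI was counted in mural-like, astrocyte-like, choroid plexus-like or neuron-lineage cells.

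The neighbouring forkhead genes both had mural-like cells as their second class, but differed in how far these lay below endothelial-like cells. Foxf2 was at 165 CPM (interval 153 to 178) in wild-type endothelial-like and at 149 CPM (115 to 188) in mural-like cells, so that the intervals overlap. In the mutant library it was at 202 CPM (190 to 216) and 147 CPM (120 to 179), which do not overlap. Foxq1 was at 571 and 596 CPM in endothelial-like cells and at 10.9 and 14.6 CPM in mural-like cells, from 5 and 10 UMIs. Its endothelial level was therefore 52.2 and 40.9 times its mural level, against 1.11 and 1.38 times for Foxf2.

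Of the Wnt pathway genes, Lef1, the TCF and LEF family factor that binds β-catenin, was at 239 and 291 CPM in endothelial-like cells. It was also counted in neuron-lineage cells at 21.0 and 18.8 CPM, in choroid plexus-like cells at 16.8 and 15.4 CPM and in mural-like cells at 8.74 and 24.8 CPM. Neuron-lineage and choroid plexus-like cells had overlapping intervals in both libraries.

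Apcdd1, a membrane protein that inhibits Wnt signalling and is itself a Wnt target, was at 525 and 583 CPM in endothelial-like cells. Mural-like cells followed at 136 and 194 CPM, then neuron-lineage cells at 82.7 and 81.6 CPM. Its endothelial level was 3.87 and 3.01 times the mural level.

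Axin2, a scaffold of the destruction complex and a common feedback target of the pathway, was the member that least set endothelial-like cells apart, beside Foxf2. It was at 56.2 CPM (49.2 to 63.9) and 64.2 CPM (57.1 to 71.9) there. Mural-like cells were at 45.9 CPM (28.4 to 70.2) and 53.9 CPM (38.0 to 74.3), and the intervals overlap in both libraries. An Axin2 UMI was in 24.0% and 27.6% of endothelial-like cells, against 0.291% and 0.245% of microglia-like cells. Ctnnb1, which encodes β-catenin, was present in every class: 1177 CPM in endothelial-like cells of both libraries, 626 and 647 CPM in neuron-lineage cells, and 100 and 96.2 CPM in astrocyte-like cells, the lowest class.

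The ligands, receptors and feedback genes of the pathway were read in the same classes. The lists hold 15 ligands, 19 receptors and co-receptors and 17 feedback genes and antagonists. Wnt7a was at 42.0 and 44.8 CPM in astrocyte-like cells, Wnt7b at 67.6 and 61.5 CPM and Ndp, which encodes Norrin, at 109 and 117 CPM. In endothelial-like cells these ligands were at most at 0.24 CPM. Among the receptors, Fzd4 was at 228 and 227 CPM in endothelial-like cells and Fzd6 at 165 and 180 CPM, in both cases above every other class. The highest receptor level in any class was that of Fzd2 in astrocyte-like cells, at 255 and 288 CPM. In endothelial-like cells Fzd2 was at 0.24 and 0.22 CPM. Reck, which with Adgra2 forms the co-receptor for Wnt7, was at 56.9 and 66.1 CPM. Adgra2 was at 58.6 and 59.0 CPM in endothelial-like cells and at 65.6 and 53.9 CPM in mural-like cells. Of the feedback genes, Notum, a secreted enzyme that inactivates Wnt proteins, was at 80.7 and 104 CPM in endothelial-like cells and at most at 0.65 CPM in the other classes.

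**Figure D2:**
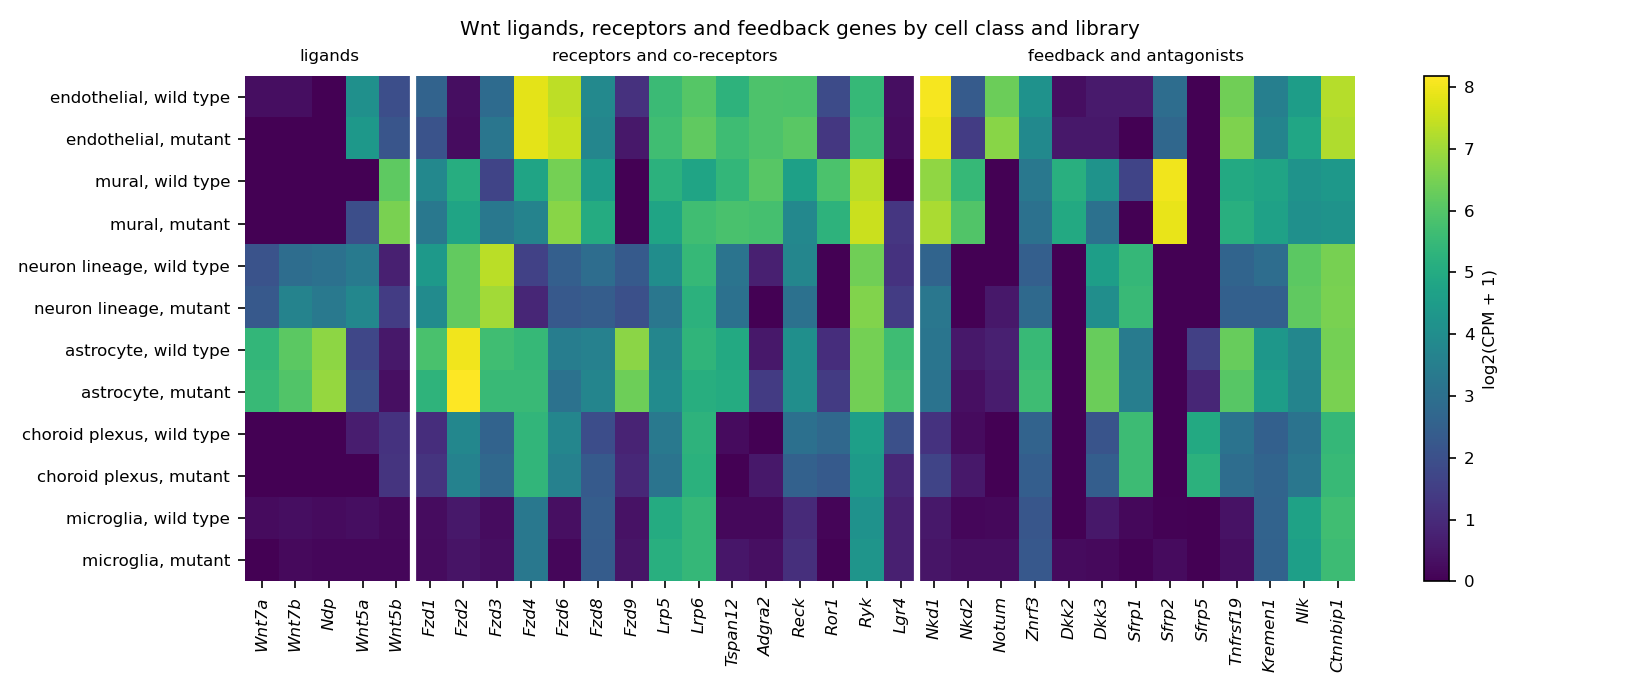
Level as log2(CPM + 1) of 33 Wnt ligands, receptors and feedback genes, those with at least 10 CPM in some class, in 6 cell classes of the wild-type and mutant library. Wnt7a, Wnt7b and Ndp are highest in astrocyte-like cells, and Fzd4, Nkd1 and Notum in endothelial-like cells.

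Endothelial cells of arteries, capillaries and veins differ in their genes, and the 10 genes were compared between these states. Cells were placed by marker sets that contain none of the 10 (for example Slc16a1 and Slc7a5 for capillaries, Gkn3 and Bmx for arteries, Slc38a5 and Vwf for veins). Capillary-like cells numbered 198 wild-type and 214 mutant, arterial-like cells 108 and 116, and venous-like cells 120 and 107. The remaining 775 of 1638 endothelial-like cells had no state, and 427 lay within 0.1 of the score margin. UMIs were summed per state and library and tested with edgeR's quasi-likelihood test, with the library as a block and Benjamini-Hochberg adjustment over 8109 genes. The replicates are 2 libraries, which differ in genotype, so p-values do not measure the spread between animals. The fit left 2 residual degrees of freedom, and edgeR drew 38.9 prior degrees of freedom from all genes, so the p-values rest mostly on a spread shared over genes.

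Lef1, Apcdd1, Ctnnb1 and Foxq1 were higher in capillary-like than in arterial-like cells, and Sox17 and Sox18 were higher in arterial-like cells. These 6 of 10 passed an adjusted p of 0.05 (edgeR), where 11.1% of all genes did. The 4 that were higher in capillary-like cells compare with 4.95% of all genes, and the 2 that were higher in arterial-like cells with 6.15%. The median log2 fold change of the 10 was 0.06, and that of all genes tested was 0.00. Axin2, Sox7, Foxf2 and Erg did not pass. By the plain criterion that both capillary-like values lie above both arterial-like values, 4 members were higher in capillary-like cells (22.7% of all genes). The opposite held for 4 members, Sox7, Sox17, Sox18 and Erg (25.4% of all genes).

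**Figure D3:**
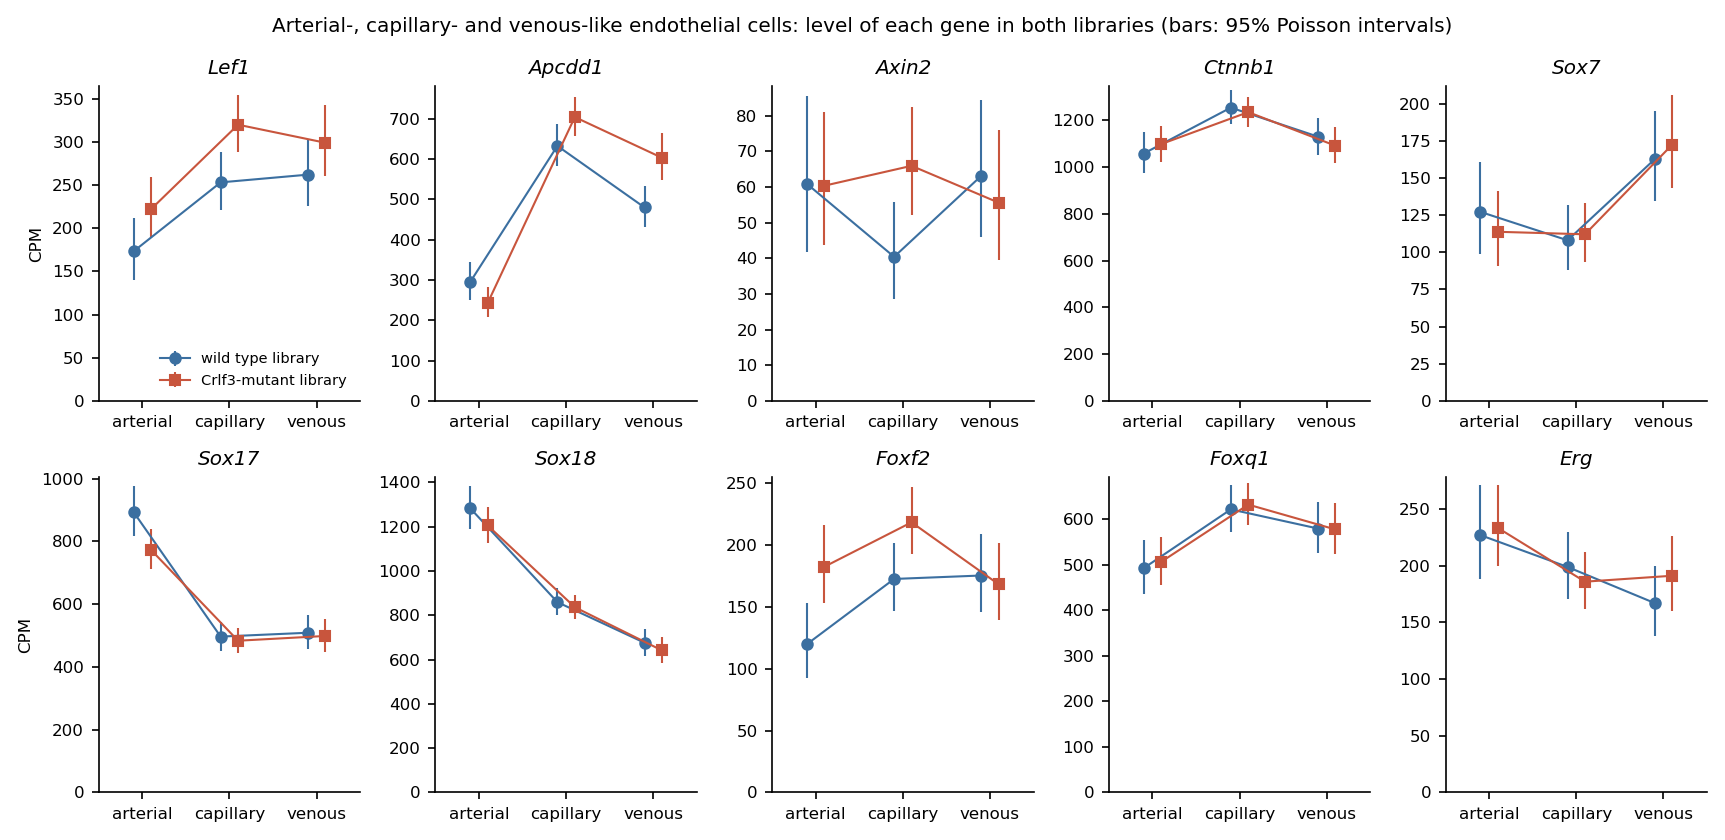
Level of each gene (CPM, axes from 0) in arterial-like, capillary-like and venous-like endothelial cells of the wild-type (circles) and mutant library (squares), with 95% Poisson intervals. Apcdd1 runs from 243 to 295 CPM in arterial-like and from 632 to 704 CPM in capillary-like cells, and Sox17 and Sox18 fall from arterial-like to capillary-like cells in both libraries.

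Apcdd1 differed most among the 10. It was at 632 and 704 CPM in capillary-like cells and at 295 and 243 CPM in arterial-like cells. Both capillary-like values lie far above both arterial-like values. The fold change was 2.54 (log2 1.34, SE 0.11, edgeR adjusted p = 1.8e-13). Its UMIs were in 86.9% and 91.1% of capillary-like and in 61.1% and 65.5% of arterial-like cells, and after thinning to 2000 UMIs in 67.2% and 73.3% against 41.0% and 39.8%. Within each library the log2 ratio was 1.07 (counting interval 0.83 to 1.32) for wild-type and 1.498 (1.27 to 1.72) for mutant cells.

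Lef1 was at 253 and 320 CPM in capillary-like cells and at 173 and 222 CPM in arterial-like cells. The capillary-like values were higher in both libraries, and the lowest of them was above the highest arterial-like value. The fold change was 1.46 (log2 0.55, SE 0.12, edgeR adjusted p = 0.00075). The call was lost with a stricter score margin (log2 0.47, adjusted p = 0.056) and with DESeq2 (log2 0.55, adjusted p = 0.38).

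Foxq1 and Ctnnb1 had smaller differences. Foxq1 was at 621 and 632 CPM in capillary-like and at 492 and 506 CPM in arterial-like cells, 1.27 times apart (log2 0.34, SE 0.09, edgeR adjusted p = 0.0056). Thinning cells to 2000 UMIs gave log2 0.18 (adjusted p = 0.49), and states from sub-clusters gave 0.21 (adjusted p = 0.16). Ctnnb1 was at 1254 and 1235 CPM against 1058 and 1098 CPM, 1.17 times apart (log2 0.22, SE 0.07, edgeR adjusted p = 0.039), and it passed in 6 of 13 alternative settings. Without the library block its adjusted p was 0.12. DESeq2 called neither. Among wild-type cells with Y-linked and no Xist UMIs, the Foxq1 log2 ratio of capillary-like over arterial-like cells was -0.44, from 47 and 23 cells, with no test.

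Sox17 was at 894 and 773 CPM in arterial-like cells and at 497 and 484 CPM in capillary-like cells. Its arterial-like level was 1.68 times the capillary-like level (capillary over arterial log2 -0.74, SE 0.09, edgeR adjusted p = 5.4e-09). Sox18 was at 1283 and 1205 CPM in arterial-like and at 859 and 836 CPM in capillary-like cells, 1.45 times higher in the former (log2 -0.54, SE 0.07, edgeR adjusted p = 4.25e-07). For both genes the states did not overlap. Apcdd1, Sox17 and Sox18 passed in each of 13 alternative settings, DESeq2 among them.

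The remaining SoxF gene was not called: Sox7 was at 127 and 114 CPM in arterial-like and at 108 and 112 CPM in capillary-like cells (log2 -0.10, SE 0.15, edgeR adjusted p = 0.79). Erg was at 227 and 233 CPM against 199 and 186 CPM (log2 -0.25, SE 0.12, adjusted p = 0.24). Foxf2 was at 120 and 182 CPM in arterial-like and at 173 and 218 CPM in capillary-like cells (log2 0.37, SE 0.14, adjusted p = 0.086), and the states overlap. Axin2 was at 60.8 and 60.3 CPM in arterial-like and at 40.4 and 65.9 CPM in capillary-like cells (log2 -0.14, SE 0.22, adjusted p = 0.82), the widest error of the 10.

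Summed mural markers were at 396 and 1175 CPM in arterial-like cells, against 220 and 418 CPM in capillary-like cells and 2080 and 852 CPM in venous-like cells. Ctnnb1 (256 and 243 CPM), Foxf2, Apcdd1 and Axin2 were the members with the highest levels in mural-like cells. Without cells that hold 10 or more mural or 50 or more microglia UMIs, the log2 fold changes were 1.39 for Apcdd1 (SE 0.10, edgeR adjusted p = 8.22e-16), 0.29 for Foxf2 (adjusted p = 0.21) and -0.17 for Axin2 (adjusted p = 0.76). Of the 10 genes 5 passed, where 864 of 7770 tested genes did, and Ctnnb1 was the call lost (log2 0.19, adjusted p = 0.14).

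Venous-like cells were added to the comparison after the values had been seen, and they share the capillary-like and arterial-like sums with it. Their sums were part of the edgeR fit above, so the capillary-like against arterial-like test also drew its spread from them. With capillary-like and arterial-like sums only, 909 of 8088 tested genes and 6 members passed. Against arterial-like cells, 11.8% of all genes passed. Of the 10, Lef1, Apcdd1 and Sox7 were higher in venous-like cells (5.76% of all genes), and Sox17 and Sox18 were higher in arterial-like cells (6.01%). Sox7 was at 163 and 172 CPM in venous-like cells, above its 4 values in the other states. It was 1.53 times higher than in capillary-like cells (log2 0.61, SE 0.13, edgeR adjusted p = 0.0023) and 1.42 times higher than in arterial-like cells (log2 0.51, SE 0.15, adjusted p = 0.014). Sox18 ran the other way, at 676 and 641 CPM in venous-like cells, 1.28 times lower than in capillary-like cells (log2 -0.36, SE 0.08, adjusted p = 0.0024). Against capillary-like cells 4.23% of all genes passed (2.52% higher in venous-like and 1.71% higher in capillary-like cells), and of the 10 genes Sox7 and Sox18 did.

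Sox17 in venous-like cells, at 509 and 499 CPM, was close to its capillary-like level (log2 0.05, SE 0.09, adjusted p = 0.91) and below its arterial-like level (log2 -0.70, SE 0.09, adjusted p = 6.17e-08). Apcdd1 was at 480 and 603 CPM in venous-like cells, above the arterial-like cells (log2 1.04, SE 0.11, adjusted p = 9.3e-10). Lef1, at 262 and 299 CPM, was also above them (log2 0.53, SE 0.13, adjusted p = 0.0022). Sox18 was lower in venous-like than in arterial-like cells as well (log2 -0.89, SE 0.08, adjusted p = 4.63e-12). By the calls made, Sox18 was thus highest in arterial-like and lowest in venous-like cells, Sox17 was higher in arterial-like cells than in either other state, and Sox7 was higher in venous-like cells than in either. Whether the 3 genes differ from each other was not tested. DESeq2 was run only for capillary-like against arterial-like cells, so the calls that involve venous-like cells had no such check.

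**Figure D4:**
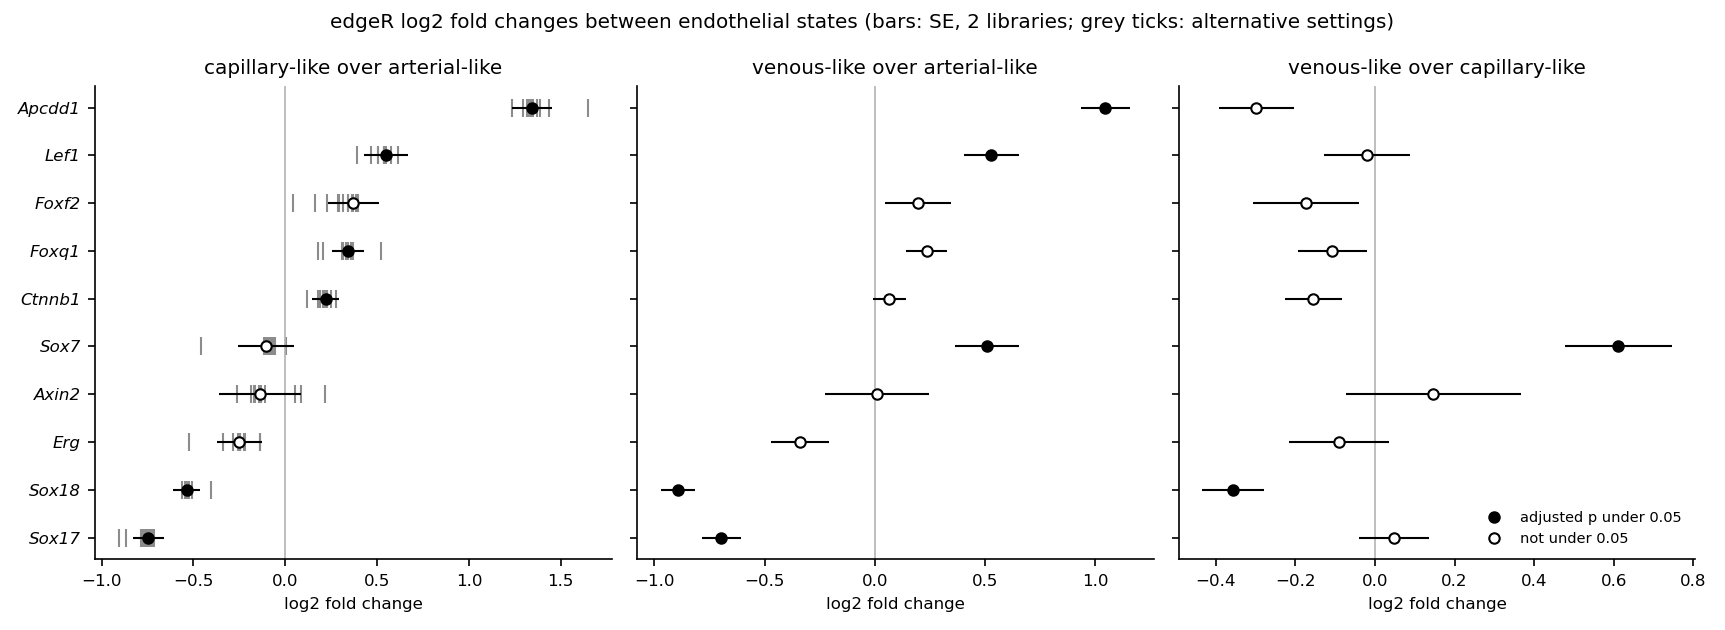
edgeR log2 fold changes of the 10 genes for 3 pairs of endothelial states, with SE bars (2 libraries). Filled points have an adjusted p under 0.05, and grey ticks in the left panel are the alternative settings. Apcdd1 at 1.34 and Sox17 at -0.74 mark the ends of the capillary-like over arterial-like scale.

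The lists of related genes were read in the same fit. Of 9 tested receptors and co-receptors none passed (edgeR), with Fzd4 at log2 0.09 (SE 0.12, adjusted p = 0.77) and Reck at -0.53 (SE 0.21, adjusted p = 0.10). Of 10 tested genes of the destruction complex none passed either. At an unadjusted p under 0.05 (edgeR) the counts were 1 of 9 and 2 of 10. The share of all genes at that unadjusted p is not given here. DESeq2 called 0 in both lists, where it called 210 of all 8109 genes. The list medians were 0.05 and 0.08, against 0.00 for all genes.

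Among 7 tested feedback genes and antagonists, 3 were higher in capillary-like cells and none was lower (none at an unadjusted p under 0.05 either), with a list median of 0.22. Notum was at 112 and 139 CPM in capillary-like and at 46.1 and 64.5 CPM in arterial-like cells (log2 1.18, SE 0.18, edgeR adjusted p = 2.24e-06). Nkd1, an intracellular inhibitor of the pathway, was at 349 and 276 CPM against 170 and 174 CPM (log2 0.86, SE 0.13, adjusted p = 3.03e-06). Ctnnbip1, which blocks the binding of β-catenin to TCF factors, was the third (log2 0.54, SE 0.14, adjusted p = 0.0062).

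Of 13 tested nuclear partners of β-catenin, Tle1, a co-repressor, was higher in capillary-like cells (log2 0.84, SE 0.17, edgeR adjusted p = 0.00032) and the co-activator Bcl9l was higher in arterial-like cells (log2 -1.58, SE 0.40, adjusted p = 0.0046). Tcf7, a relative of Lef1, was at 86.2 and 116 CPM in capillary-like and at 84.8 and 96.0 CPM in arterial-like cells (log2 0.19, SE 0.17, adjusted p = 0.61). The 2 ligands tested, Wnt5a and Wnt5b, were both higher in arterial-like than in capillary-like cells (6.15% of all genes). In the endothelial states both lay below the 50 CPM used elsewhere as a cut. Wnt5a was at 25.8 and 28.8 CPM in arterial-like and at 3.28 and 9.42 CPM in capillary-like cells (edgeR adjusted p = 0.00063). It was highest in venous-like cells, at 35.1 and 47.0 CPM. Wnt5b was at 14.8 and 17.8 CPM in arterial-like and at 1.09 and 0.86 CPM in capillary-like cells (adjusted p = 0.0020). Mural-like cells, whose markers were also higher in arterial-like than in capillary-like cells, held Wnt5b at 69.9 and 91.8 CPM. Without cells holding mural or microglia UMIs the Wnt5b adjusted p was 0.00067 (edgeR). DESeq2 called 0 of the ligands and 0 of the nuclear partners, so the calls of Wnt5a, Wnt5b, Tle1 and Bcl9l were all lost with it.

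Of 11 tested barrier genes tied to endothelial Wnt signalling, 4 were higher in capillary-like cells, where 4.95% of all genes were. These were Tfrc, the transferrin receptor (log2 1.39, SE 0.13, edgeR adjusted p = 2.38e-11), the lipid transporter Mfsd2a (log2 0.48, SE 0.09), the efflux pump Abcg2 (log2 0.44, SE 0.08) and the tight junction gene Cldn5 (log2 0.22, SE 0.06). Tfrc and Mfsd2a, and Spock2, which did not pass, are known capillary markers. They were added as such in an alternative setting, so the direction of Tfrc and Mfsd2a is no new result about Wnt-linked genes. Plvap, a gene of fenestrated vessels, was the member higher in arterial-like cells (6.15% of all genes), but 3 cells held 2 or more of its UMIs. In the mutant library all 88 arterial-like Plvap UMIs came from 1 cell. Slc2a1, the glucose transporter of the barrier, was at 6490 and 6300 CPM in capillary-like and at 6866 and 6887 CPM in arterial-like cells (log2 -0.09, SE 0.05, adjusted p = 0.32).

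Among 18 tested endothelial transcription factors other than the 10, Ets1 (log2 0.57, SE 0.12) and Foxo1 (log2 0.50, SE 0.14) were higher in capillary-like cells. Mecom (log2 -0.93, SE 0.17), Gata2 (log2 -0.75, SE 0.12), Epas1 (log2 -0.43, SE 0.08) and Klf4 (log2 -0.32, SE 0.08) were higher in arterial-like cells. Of 12 tested genes of the VEGF and Notch axis, 6 were higher in arterial-like cells (Notch4, Jag2, Acvrl1, Unc5b, Tgfb2 and Eln), where 6.15% of all genes were. Nrp1, Kdr and Hes1 were higher in capillary-like cells (4.95% of all genes). The markers that set the arterial-like state include Hey1, Efnb2 and Vegfc, genes close to this axis. The arterial-like calls of this list are therefore not independent of how the cells were placed. The list median was -0.42. Kdr, the main VEGF receptor, was at 504 and 467 CPM in capillary-like and at 363 and 317 CPM in arterial-like cells (log2 0.54, SE 0.10, edgeR adjusted p = 0.00019). DESeq2 called fewer genes of the other lists: 1 feedback gene, 1 barrier gene, 1 of the transcription factors and 2 of the VEGF and Notch axis.

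Between the genotypes, the levels of the 10 genes in endothelial-like cells lay close together. Over all endothelial-like cells no member was 1.5 times apart, and of 3569 genes at 50 CPM and 30 UMIs, 0.0% were 1.5 times higher and 0.112% were 1.5 times lower in the mutant library. The members' log2 ratios, mutant over wild type with 10 CPM added, ran from -0.10 to 0.28 with a median of 0.06, against 0.01 for all these genes. For 7 of the 10 the ratio was above 0, as for 52.6% of the genes. These are values of 1 library per genotype, and their intervals cover counting error only.

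**Figure D5:**
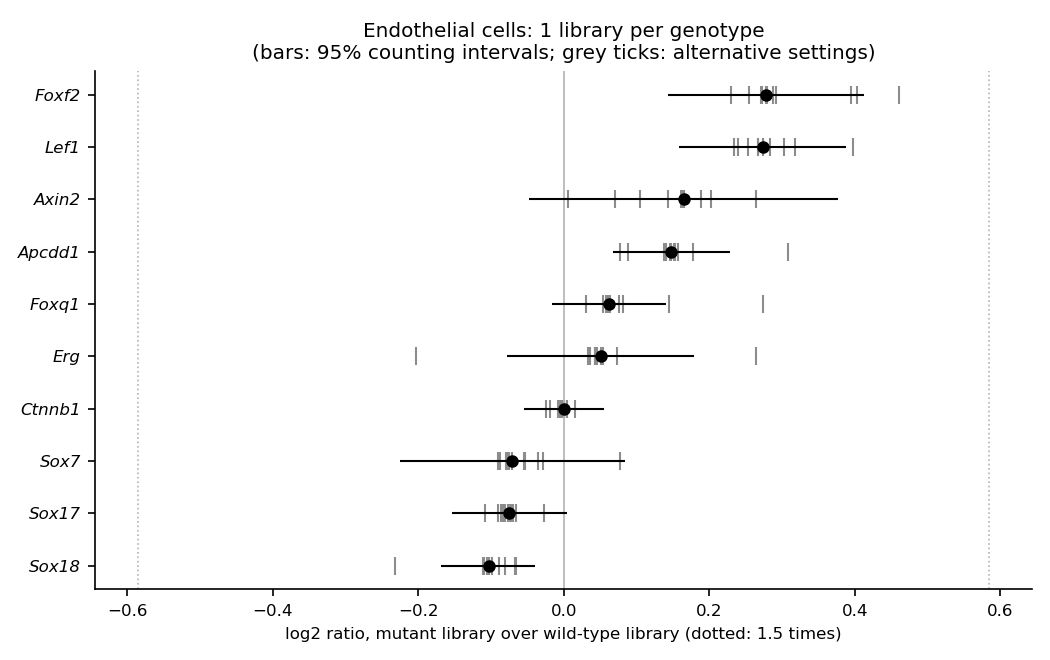
Log2 ratio of mutant over wild-type library in endothelial-like cells for each of the 10 genes, with 95% counting intervals. Grey ticks are alternative settings and dotted lines mark 1.5 times; Foxf2 (0.28) and Lef1 (0.27) lie highest and Sox18 (-0.10) lowest, with no replicate library.

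Foxf2 went from 165 to 202 CPM (log2 ratio 0.28, counting interval 0.14 to 0.41), and Lef1 from 239 to 291 CPM (0.27, 0.16 to 0.39). Apcdd1 had a ratio of 0.15 (0.07 to 0.23) and Sox18 of -0.10 (-0.17 to -0.04). These 4 had a counting interval without 0, as did 17.6% of all genes measured, and for 3 of them it lay above 0, as for 9.75%. Tcf7 and Notum, of the pathway lists, had ratios of 0.30 and 0.33, and Nkd1 one of -0.13. No gene of the 8 lists was 1.5 times apart among those measured.

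Ctnnb1 was at 1177 CPM in both libraries (ratio 0.00, -0.06 to 0.06). Sox17 (-0.08), Sox7 (-0.07), Erg (0.05), Foxq1 (0.06) and Axin2 (0.17) had intervals that held 0. Within the endothelial states the ratios were wider. In capillary-like cells Axin2 went from 40.4 to 65.9 CPM (0.59, 0.13 to 1.06), from 37 and 77 UMIs, and was the only member 1.5 times apart, as were 0.986% of the genes measured there. In arterial-like cells Foxf2 went from 120 to 182 CPM (0.57, 0.17 to 0.97). No member was 1.5 times apart in arterial-like or venous-like cells on this scale, where 4.75% and 4.47% of the genes were. Outside endothelial-like cells, Apcdd1 was at 136 and 194 CPM in mural-like cells (0.49, 0.08 to 0.89), from 62 and 133 UMIs. Ctnnb1 was at 169 and 139 CPM in choroid plexus-like cells (-0.26, -0.43 to -0.09).

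The genes whose profile was most like that of a member, by Pearson's r of log2(CPM + 10) over 18 sums (6 classes and 3 endothelial states in 2 libraries), were taken from 3294 candidates. The sums share libraries and cells, so r is a description. Erg was nearest to Cdh5, Clec14a and Fgd5, with r above 0.999, and Cdh5 is a marker used to find endothelial-like cells. Sox17 was nearest to Icam2, Gata2 and Srarp, and Sox18 to Srarp, Podxl and Icam2. Sox7 was nearest to Rnf125, Slc52a3 and Vwa1.

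Foxq1 was nearest to Efna1, Fn1 and Tek, and Foxf2 to Kcna5, Esam and Scarf1, of which Esam is also in mural-like cells (605 and 588 CPM). Esam, too, is a marker used to find endothelial-like cells. Apcdd1 was nearest to Rasal2, Mxra7 and Vat1 (r from 0.97 to 0.99). Ctnnb1 was nearest to Klf11, Bnip3l and Kif5b, and Axin2, with the lowest r (0.97), to Ccser2, Plcb4 and Vim. Lef1 was nearest to Lef1os1 (r = 0.99), the transcript named as its opposite strand, then to Nomo1 and Rflnb. Whether the counting used strand is not given in the sources used here, so reads of Lef1 and Lef1os1 may not be told apart.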

How the data were processed

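Per the labels' protocols, pooled hippocampi were dissociated, cleared of debris and myelin and sorted for live cells, and the authors made the deposited UMI counts with Cell Ranger 6.1.1 on the mm10 build. The other tool the submitters' processing notes list, Partek, has no stated role. The counts are raw, and no annotation of cells was used.

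Barcodes under 500 genes or 1000 UMIs, or above 10% mitochondrial UMIs, were dropped, leaving 7246 and 5353. Scrublet in scanpy 1.11.5 removed 148 (2.04%) and 77 (1.44%) doublets. A cell took the class whose mean scaled marker score was at least 0.3 and 1.5 times the next, and an endothelial state needed a z-score margin of 0.3. Levels are CPM of summed counts with exact Poisson 95% intervals, which cover counting error only. States were tested with edgeR 4.0.16 (quasi-likelihood, TMM, library as block); DESeq2 1.42.0 was an alternative. Tested on simulated data of 8001 genes for the capillary-like against arterial-like contrast, edgeR recovered 14 of 50 genes changed 1.5-fold and 39 of 50 changed 2-fold, with 6 false calls. The simulated counts had no library effect and a spread set above that of the real fit (common dispersion 0.00306). These rates therefore need not hold for the real counts. The block joins sums of 1 library, which hold the same mice.

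All members were described. Genes of each list were named from the up to 4 tested ones with the largest capillary-like against arterial-like change. Ligands and receptors with the highest level, and called genes of lists with few calls, were also drawn on. Not all of these genes were named, and none of the destruction complex list was. The called genes were picked after their values were seen, as were Tcf7, Adgra2, Kdr, Slc2a1, Fzd4 and Fzd6. For each member the 3 genes with the most similar profile were named. Members, lists and tests were chosen with earlier results of these data known.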

Additional observations from a re-analysis of the deposited data

Results flagged for a closer look

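In 7 of the 10 genes, 2 groups of cells moved in opposite directions under the same contrast, and none of these differences was tested. Several of the values lie close to 0. Between the libraries, Axin2 had a capillary-like over arterial-like log2 ratio of -0.49 in wild-type (interval -1.06 to 0.07) and of 0.11 in mutant cells (-0.35 to 0.57). Its venous-like over capillary-like ratio was 0.54 and -0.21, and its venous-like over arterial-like ratio 0.045 and -0.10. The wild-type capillary-like value of 40.4 CPM stands apart from the other arterial-like and capillary-like values, which lie between 60.3 and 65.9 CPM.

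Foxf2 had a venous-like over arterial-like ratio of 0.51 in the wild-type library (0.11 to 0.92) and of -0.11 in the mutant library (-0.45 to 0.23). Its venous-like over capillary-like ratio was 0.022 and -0.36. The venous-like over capillary-like ratio was 0.048 and -0.094 for Lef1 and -0.24 and 0.038 for Erg. Ctnnb1 had a venous-like over arterial-like ratio of 0.094 and -0.009.

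The remaining values concern cells of different animals within the pools, told by Xist or by Y-linked transcripts. For Erg, the mutant over wild type log2 ratio in endothelial-like cells was 0.26 among Xist-positive cells that lack Y-linked UMIs (252 wild-type and 284 mutant cells). It was -0.20 among Y-positive cells that lack Xist UMIs (185 and 199 cells). For Sox7 it was -0.053 in the former and 0.078 in the latter. Cells without either kind of UMI are in neither group.

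The capillary-like over arterial-like ratio in these cells was split in 3 genes. For Foxq1 it was 1.19 and 0.40 in Xist-positive cells and -0.44 and 0.68 in Y-positive cells (wild type, then mutant). For Sox7 it was 0.41 and -0.18 in Xist-positive and -0.53 and 0.56 in Y-positive cells. For Axin2 it was -0.21 and -0.24 in Xist-positive and -0.49 and 0.28 in Y-positive cells.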

How the results depend on the processing

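The count of genes called between capillary-like and arterial-like cells, 900 (401 higher in capillary-like and 499 in arterial-like cells), was 371 (157 and 214) with cells thinned to 2000 UMIs and 210 (84 and 126) with DESeq2, which called 3 of the 10 members in place of 6. Thinning tested 4451 genes in place of 8109, and the cause of neither drop was tested. Without the replicate block, 747 genes and 5 members were called, and Ctnnb1 was the member lost (adjusted p = 0.12). Each library alone gives a value with no test: the capillary-like over arterial-like log2 ratio ran from 1.07 to 1.498 for Apcdd1 and from -0.49 to 0.11 for Axin2. The sign turned for Axin2 at a stricter margin (0.21), with Wnt-linked capillary markers added (0.086) and in sub-clusters (0.052), and for Sox7 in sub-clusters (0.003). In cells split by Xist and Y-linked UMIs, an alternative chosen after seeing the data, it turned for Sox7 in Xist-positive wild-type (0.41) and Y-positive mutant cells (0.56), for Axin2 in Y-positive mutant cells (0.28) and for Foxq1 in Y-positive wild-type cells (-0.44). Leaving out cells with Plvap UMIs, also chosen after seeing the data, called 5 members and 870 of 8086 tested genes. Among Xist-positive cells that lack Y-linked UMIs, the members' median genotype ratio was 0.20; choroid plexus-like cells numbered 3 and 0 there. The counts of members highest or 10 times higher in endothelial-like cells, and of none 1.5 times apart, stayed within 1.5 times of the main count in all alternatives run. With 1 pooled library per genotype, differences between animals, dissociations and sorts cannot be told apart from genotype.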
